A study of Mus musculus with 6 samples.

Results

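Scavenger receptors are a group of surface and lysosomal proteins that were put together for what they bind, not for a common fold, and 10 of the 30445 genes in the deposited count table were examined here. They were taken by symbol: Msr1, Scara3, Scara5 and Colec12 of class A, Scarb1 and Scarb2 of class B, Cd68 of class D, Olr1 of class E, Stab1 of class H, and Mrc1, the mannose receptor. All 10 were in the table and all 10 passed the filter on low counts, as did 18613 genes in all. Members were chosen to set receptors known from macrophages beside receptors known from mesenchymal cells. The rule uses symbols only, but the members were chosen with earlier results of these data known. Their directions below are therefore no independent test of that choice.

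The libraries were made from messenger RNA of 3 kinds of mouse cells, 2 libraries of each: embryonic fibroblasts (MEF), cells that the labels call a myeloid-like cell complex (MCC), and induced macrophages (iMac). All 6 libraries carry the genotype label wild type. By its title, the series concerns fibroblasts turned into macrophages by c-Myc. The sources used here give neither how the MCC and the iMac were made nor the age of the embryos. Library totals lay between 34389817 and 39174367 counts. The labels do not say whether a group's libraries were separate cultures, so the p-values measure only the spread between these libraries, which may be technical.

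Class A receptors are trimers with a collagen-like or coiled stalk that bind polyanions such as modified lipoproteins and bacterial surfaces, and Msr1 is the member best known from tissue macrophages. Class B receptors span the membrane at both ends: Scarb1 takes up cholesteryl esters from high-density lipoprotein, and Scarb2 (LIMP-2) is a membrane protein of lysosomes. Cd68 is a heavily glycosylated protein of late endosomes and lysosomes that is used as a stain for macrophages. Olr1 (LOX-1) is a C-type lectin that binds oxidised low-density lipoprotein and is best known from endothelial cells. Stab1 and Mrc1 clear matrix proteins and glycoproteins, and both are found on tissue-resident macrophages and on sinusoidal or lymphatic endothelium. Scara5 takes up ferritin, and Scara3 and Scara5 are known from fibroblasts and epithelia more than from myeloid cells.

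The cell labels were set beside marker genes, as sums of CPM (counts over the library total times 1e6, after TMM scaling, which corrects totals for composition). The 12 macrophage markers summed to 24.3 and 48.8 CPM in MEF, to 11939 and 11563 CPM in MCC and to 22490 and 18523 CPM in iMac. Mertk made up 17.5 and 39.1 CPM of the MEF sums. Lyz2 made up 6290 and 6008 CPM in MCC and 15078 and 11716 CPM in iMac. Between iMac and MCC none of the 12 was called by the edgeR test, and their median log2 difference was 0.16. Only 0.0215% of all genes tested were called there, so the lack of calls does not show likeness. The 12 fibroblast markers summed to 24026 and 9656 CPM in MEF, to 1180 and 101 CPM in MCC libraries 1 and 2, and to 20.1 and 16.4 CPM in iMac. The MEF libraries therefore differed in fibroblast genes, and MCC library 1 stood apart from MCC library 2. The MCC results of Scara3, Scara5, Mrc2, Ly75, Megf10, Sparc and Clu, which lay mostly in library 1, are given with and without it. Of the 10 endothelial markers, 9 were in the table, and they summed to between 28.9 and 55.1 CPM in every library, but they went opposite ways. Against MEF, Pecam1, Tie1 and Egfl7 were called higher in MCC and iMac, and Tek, Emcn and Esam were called lower in both. Of all genes tested, 23.4% were called higher and 29.6% lower in MCC, and 25.1% and 32.4% in iMac. These shares also belong beside the lymphatic endothelial calls below. Emcn was at 23.8 and 30.8 CPM in MEF, at 0.0780 and 0.187 CPM in MCC and at 0 in iMac, and Egfl7 was at 2.44 and 3.76, at 23.98 and 18.5 and at 32.97 and 46.6 CPM. Erg was at 0 in MCC and iMac. The call of Tie1 in MCC was lost without MEF library 1, either MCC library or iMac library 1 (adjusted p up to 0.0676), and in iMac without iMac library 1 (0.05086). The 4 lymphatic endothelial markers summed to 103 and 127 CPM in MEF, to 7.57 and 5.62 CPM in MCC and to 0.926 and 0.663 CPM in iMac. Of the MEF sums, Pdpn made up 78.8 and 102 CPM. Prox1, Flt4 and Pdpn were called lower in MCC, Pdpn not without MEF library 2, and all 4 in iMac. Lyve1 was not called lower in MCC, at 1.60 and 2.34 CPM in MEF and 3.09 and 4.17 CPM in MCC. The 5 adipocyte markers summed to 2.39 and 28.2 CPM in MEF libraries 1 and 2 and to at most 0.702 CPM in the others. Their part in the MEF levels of the receptors was not tested.

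Across the 10 members the 3 groups fell into a plain pattern. Against MEF, 7 members rose in MCC (Msr1, Mrc1, Stab1, Cd68, Colec12, Scarb1 and Scarb2), 2 fell (Scara3 and Olr1), and Scara5 did not pass the test (edgeR quasi-likelihood test, Benjamini-Hochberg adjusted p under 0.05). Of all genes tested, 53.0% were called in this comparison, with 23.4% higher and 29.6% lower. In iMac against MEF the same 7 symbols rose and 3 fell, Scara5 being the third, beside 57.6% of all genes called, 25.1% higher and 32.4% lower. The median log2 fold change of the members was 1.37 in MCC and 1.64 in iMac, beside -0.05 and -0.06 over all genes tested. Both comparisons use the same MEF libraries. In bulk RNA, fewer cells of a type and less RNA per cell cannot be told apart.

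**Figure D1:**
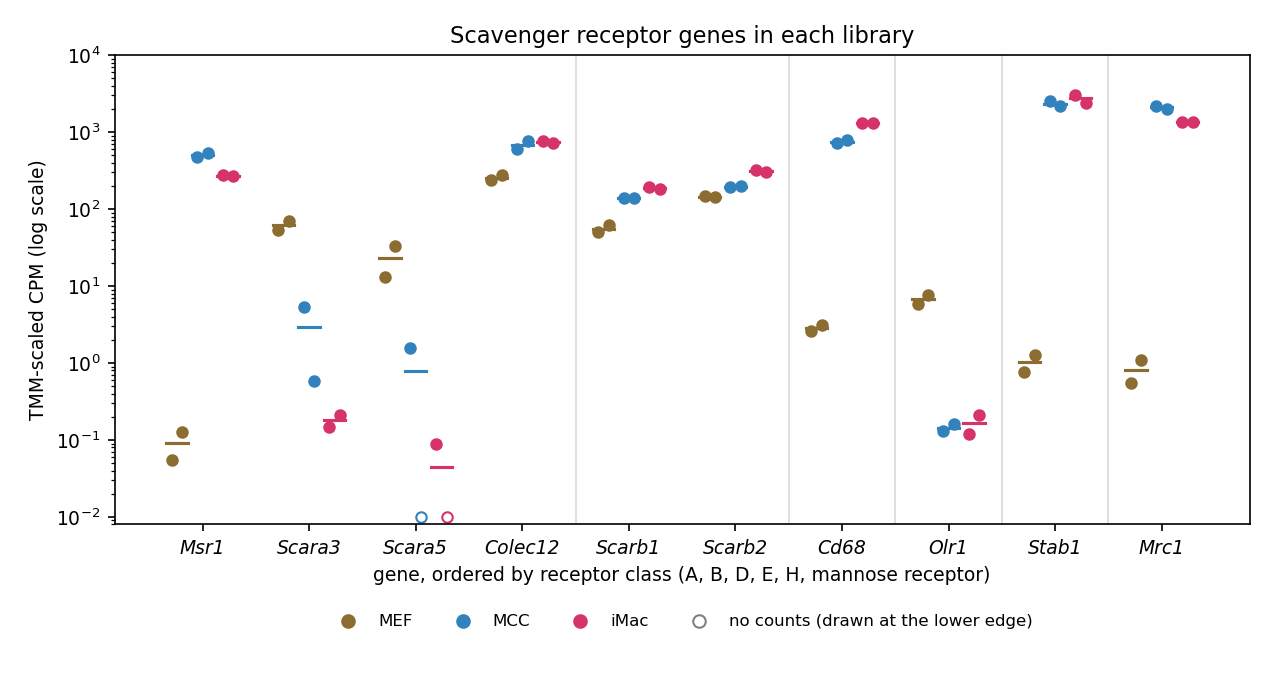
Scaled CPM of the 10 members in each of the 6 libraries, on a log axis. Each point is 1 library, bars are group means, colours are groups, and open points at the lower edge had no counts. Msr1, Mrc1, Stab1 and Cd68 lie far higher in both MCC and both iMac libraries than in MEF, Scara3, Scara5 and Olr1 lie lower, and Scara3 and Scara5 are spread apart between the MCC libraries.

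Msr1, Mrc1, Stab1 and Cd68 were the members that rose from at most 3.14 CPM in any MEF library to at least 266 CPM in every MCC and iMac library. Msr1, the macrophage scavenger receptor (chr8:39581685-39642673, minus strand, GRCm38), was at 0.0542 and 0.129 CPM in the MEF libraries, at 474 and 539 CPM in MCC and at 280 and 266 CPM in iMac. The MEF values rest on 2 and 5 counts, against 18219 and 20140 counts in MCC and 9383 and 8809 in iMac. The groups did not overlap, and MCC was the highest of the 3. This held beyond Msr1: in both comparisons with MEF no member's groups overlapped, 7 being higher and 3 lower, where 38.2% of all genes lay higher and 42.4% lower without overlap in MCC, and 39.1% and 43.5% in iMac. The log2 fold change was 12.37 ± 0.31 (SE; adjusted p = 7.273e-05, edgeR quasi-likelihood test) in MCC and 11.48 ± 0.30 (adjusted p = 5.912e-05) in iMac.

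Mrc1 (chr2:14229392-14332057, plus strand; 30 exons in its longest transcript) binds mannose- and fucose-ended sugars and collagen fragments. It was at 0.542 and 1.08 CPM in MEF, at 2216 and 1995 CPM in MCC and at 1361 and 1363 CPM in iMac. Both MCC libraries were above both iMac libraries, and MEF lay near 0. Its log2 fold change was 11.33 ± 0.42 in MCC (adjusted p = 0.0001535) and 10.70 ± 0.41 in iMac (adjusted p = 0.0001471).

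Stab1 (chr14:31139013-31168641, minus strand; 69 exons) takes up the matrix protein SPARC and acetylated lipoprotein. It was at 0.759 and 1.29 CPM in MEF, at 2523 and 2190 CPM in MCC and at 3072 and 2412 CPM in iMac. The MCC and iMac libraries overlapped and all were far above MEF, with log2 fold changes of 11.16 ± 0.40 (adjusted p = 0.0001414) and 11.38 ± 0.40 (adjusted p = 0.0001219). Of its exonic bases, 1.09% are shared with Nt5dc2 on the opposite strand, and the other 9 members share none with another annotated gene.

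Cd68 (chr11:69664213-69666153, minus strand; 6 exons) started from a higher level in fibroblasts than the other 3 of this group. It was at 2.58 and 3.14 CPM in MEF, at 720 and 790 CPM in MCC and at 1329.13 and 1329.87 CPM in iMac. The libraries of each group were close together and the groups did not overlap. It rose 264-fold in MCC (log2 fold change 8.04 ± 0.18, adjusted p = 6.079e-05) and 464-fold in iMac (8.86 ± 0.19, adjusted p = 5.009e-05).

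Promoter sequences from RefSeq (build GRCm38.p6) were searched for 5 of the 10 members: Cd68, Mrc1, Stab1, Olr1 and Scarb2. Each runs from 250 bases before to 50 after the annotated start. No promoter is reported here for the other members. The promoters of 3 members that rose by large factors and that of Olr1, which fell, are shown so that the letters can be set beside the levels. They read 5′ to 3′ on the strand of the gene, and capitals mark the core that PU.1 (Spi1) binds, GAGGAA or its reverse complement TTCCTC, and the AP-1 motif TGANTCA.
Cd68, chr11:69666121-69666420, minus strand: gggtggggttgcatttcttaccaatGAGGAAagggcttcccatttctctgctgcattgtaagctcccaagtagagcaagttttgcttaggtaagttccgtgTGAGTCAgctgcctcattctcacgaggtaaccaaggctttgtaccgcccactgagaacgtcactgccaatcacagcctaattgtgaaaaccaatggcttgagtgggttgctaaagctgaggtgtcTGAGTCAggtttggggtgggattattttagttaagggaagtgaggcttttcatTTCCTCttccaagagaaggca
Mrc1, chr2:14229164-14229463, plus strand: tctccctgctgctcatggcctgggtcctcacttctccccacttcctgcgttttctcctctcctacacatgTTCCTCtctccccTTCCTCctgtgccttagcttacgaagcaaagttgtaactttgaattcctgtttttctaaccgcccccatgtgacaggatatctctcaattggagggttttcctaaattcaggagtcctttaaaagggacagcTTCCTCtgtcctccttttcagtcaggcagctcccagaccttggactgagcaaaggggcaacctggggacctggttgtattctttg
Stab1, chr14:31168592-31168891, minus strand: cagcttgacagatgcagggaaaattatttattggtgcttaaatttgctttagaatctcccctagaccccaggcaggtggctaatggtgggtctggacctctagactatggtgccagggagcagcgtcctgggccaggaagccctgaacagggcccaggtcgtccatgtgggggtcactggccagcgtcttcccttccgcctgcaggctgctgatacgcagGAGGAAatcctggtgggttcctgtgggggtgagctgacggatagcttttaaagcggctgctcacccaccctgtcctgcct
Olr1, chr6:129507116-129507415, minus strand: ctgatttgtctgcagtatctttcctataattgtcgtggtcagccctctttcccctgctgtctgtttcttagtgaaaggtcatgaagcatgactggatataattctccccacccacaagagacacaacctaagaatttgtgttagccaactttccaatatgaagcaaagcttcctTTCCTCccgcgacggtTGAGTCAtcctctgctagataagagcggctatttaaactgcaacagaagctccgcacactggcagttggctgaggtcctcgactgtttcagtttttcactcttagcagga

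All 4 printed promoters held the PU.1 core, with 3 matches in Mrc1, 2 in Cd68 and 1 each in Stab1 and Olr1. Among 32544 promoters of the same length, 28.1% held it on either strand. The AP-1 motif was found in Cd68, at 149 and 24 bases before the start, and in Olr1, at 60 bases before it, beside 7.79% of all promoters. Cd68 also held the C/EBP motif TTGCNNAA once, which 10.8% of promoters held and which overlaps none of the other matches. The promoter of Scarb2 held none of these 3 motifs. None of the 5 held the E-box CACGTG (7.17% of all), the M-box TCANGTGA (4.12%) or TATAAA (13.6%). The PU.1 core was thus present in receptors that rose and in one that fell, and a match of letters is no record of binding.

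Colec12, Scarb1 and Scarb2 rose by small factors from levels that were already substantial in fibroblasts. Colec12 (chr18:9707595-9882644, plus strand), a membrane collectin with a class A stalk and a carbohydrate-binding head, was at 241 and 274 CPM in MEF, at 601 and 770 CPM in MCC and at 769 and 718 CPM in iMac. MCC and iMac overlapped, and both lay above MEF. It rose 2.66-fold in MCC (log2 fold change 1.41 ± 0.16, adjusted p = 0.002788) and 2.89-fold in iMac (1.53 ± 0.16, adjusted p = 0.00188).

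Scarb1 (chr5:125277087-125341094, minus strand) was at 49.8 and 61.9 CPM in MEF, at 138 and 142 CPM in MCC and at 195 and 180 CPM in iMac. The 3 groups stood in that order with no overlap. It rose 2.50-fold in MCC (log2 fold change 1.32 ± 0.13, adjusted p = 0.002013) and 3.36-fold in iMac (1.75 ± 0.13, adjusted p = 0.0008041). Scarb2 (chr5:92441314-92506833, minus strand), its lysosomal relative, was at 146 and 142 CPM in MEF, at 194 and 198 CPM in MCC and at 323 and 308 CPM in iMac. The order was the same, and in MCC it was the smallest change among the 9 called members, at 1.36-fold (0.44 ± 0.08, adjusted p = 0.01062). In iMac Scarb2 rose 2.19-fold (1.13 ± 0.08, adjusted p = 0.0007609).

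**Figure D2:**
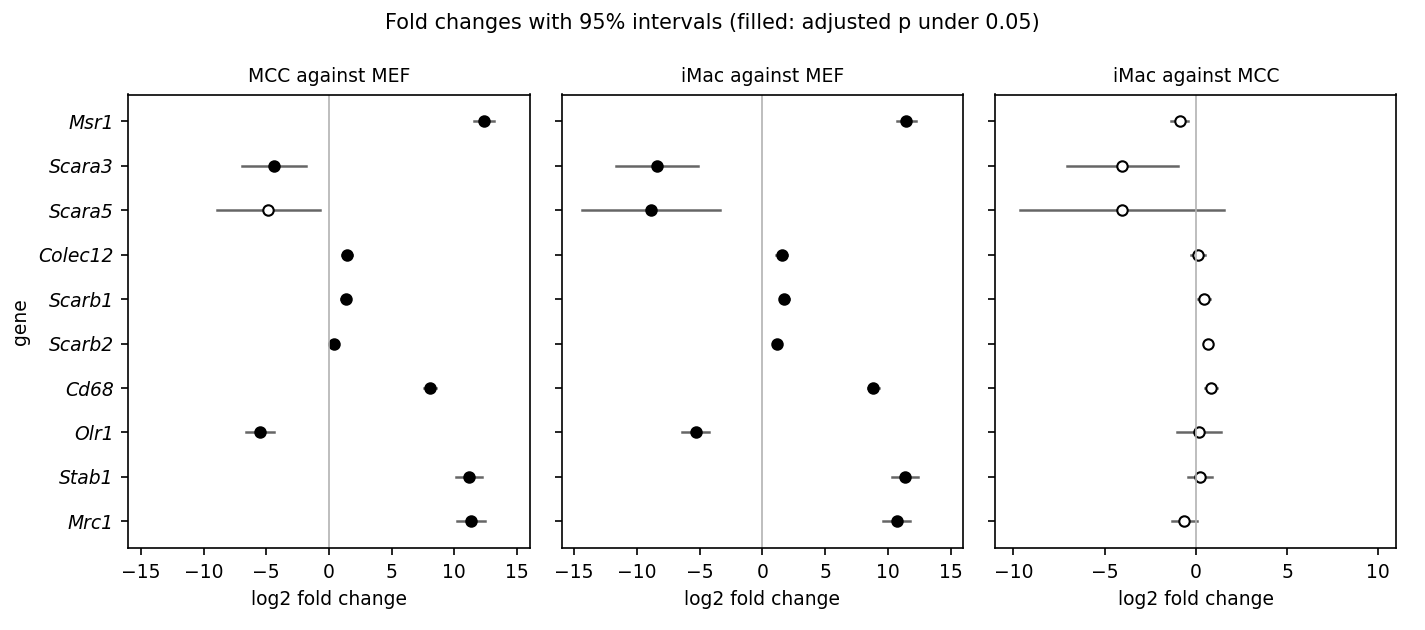
Log2 fold change of each member in the 3 comparisons, as points with 95% confidence intervals from the edgeR fit (filled: adjusted p under 0.05). Msr1, Mrc1 and Stab1 lie above 10 in both comparisons with MEF, Scarb2 lies at 0.44 and 1.13, and the intervals of Scara3 and Scara5 are the widest; the iMac values of Scara5, with 3 counts, depend on the prior count.

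Scara3, Scara5 and Olr1 went the other way. Scara3 (chr14:65919394-65953935, minus strand; 6 exons), a class A relative known to be induced by oxidative stress, was at 53.6 and 69.4 CPM in MEF, at 5.36 and 0.589 CPM in MCC and at 0.149 and 0.211 CPM in iMac. No libraries overlapped between groups, but MCC library 1 was 9.10-fold above MCC library 2. Its log2 fold change was -4.37 ± 0.995 in MCC (20.6-fold lower, adjusted p = 0.0185) and -8.39 ± 1.28 in iMac (335-fold lower, adjusted p = 0.005175). In MCC the call was lost without MEF library 1 (adjusted p = 0.05326) or MEF library 2 (0.07146). With MCC library 1 left out the log2 fold change came to -6.69, and with MCC library 2 left out to -3.40. In iMac the adjusted p was 0.05 without iMac library 1, which is no longer a call.

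Scara5 (chr14:65666403-65764826, plus strand), the ferritin receptor, was at 12.96 and 32.7 CPM in MEF, at 1.59 and 0 CPM in MCC and at 0.0896 and 0 CPM in iMac. These levels rest on 478 and 1270 counts (MEF), 61 and 0 counts (MCC) and 3 and 0 counts (iMac), so MCC library 1 holds every MCC count. MEF did not overlap either group. For MCC against MEF the log2 difference was -4.84 ± 1.61 (adjusted p = 0.05377), which missed the threshold. It was called with limma-voom (0.03993) and with no filter (0.04168). Over the 8 other settings, DESeq2 and limma-voom among them, the adjusted p went up to 0.1423. With a library left out, Scara5 was called only without MCC library 1 or MCC library 2. Without MCC library 1 no MCC count is left, and Scara5 was at least 285-fold lower against the floor of 3 counts (adjusted p = 0.005406). Without MCC library 2 the log2 fold change was -3.72 (adjusted p = 0.02583). In iMac it fell, at a ratio of 513-fold with a 95% counting interval of 175 to 2490 (adjusted p = 0.01962). That call was lost without MEF library 2 (adjusted p = 0.07167), iMac library 1 (0.09582) or iMac library 2 (0.1193), and with limma-voom (0.05662). Counting intervals cover counting error only.

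Olr1 (chr6:129485244-129507165, minus strand) was at 5.77 and 7.73 CPM in MEF, at 0.130 and 0.161 CPM in MCC and at 0.119 and 0.211 CPM in iMac. These levels rest on 213 and 300 counts (MEF), 5 and 6 counts (MCC) and 4 and 7 counts (iMac). Unlike Scara3, it was alike in both MCC libraries. Endothelial Emcn, Tek and Esam were lower in the same groups as Olr1, and Pecam1, Tie1 and Egfl7 were higher; the part of endothelial cells in the MEF level was not tested. It fell 45.5-fold in MCC (log2 fold change -5.51 ± 0.43, adjusted p = 0.001116) and 40.1-fold in iMac (-5.32 ± 0.43, adjusted p = 0.0009358).

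What remained of these 3 receptors was set beside the fibroblast markers, each as a percentage of its mean in MEF. In MCC library 1, Scara3 stood at 8.71%, Scara5 at 6.95% and Olr1 at 1.93%, where the 12 fibroblast markers had a median of 4.77% (range 1.63 to 12.5%). In MCC library 2, Scara3 stood at 0.957%, Scara5 at 0% and Olr1 at 2.38%, with the markers at 0.465% (0.0700 to 1.59%). Scara3 and Scara5 thus differed between the MCC libraries in the same direction as the fibroblast markers, and Olr1 did not. In iMac, Olr1 was at 1.77 and 3.13%, above the highest fibroblast marker (0.842 and 0.771%), and Scara3 was at 0.243 and 0.343%. The percentages of Olr1 rest on 5 and 6 counts in MCC and on 4 and 7 in iMac. Its MEF mean was 6.75 CPM, below the lowest of the markers (Twist1, 42.5 CPM), so each count weighs more in its percentage. The part of the fibroblast genes of MCC library 1 in these levels was not tested.

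**Figure D3:**
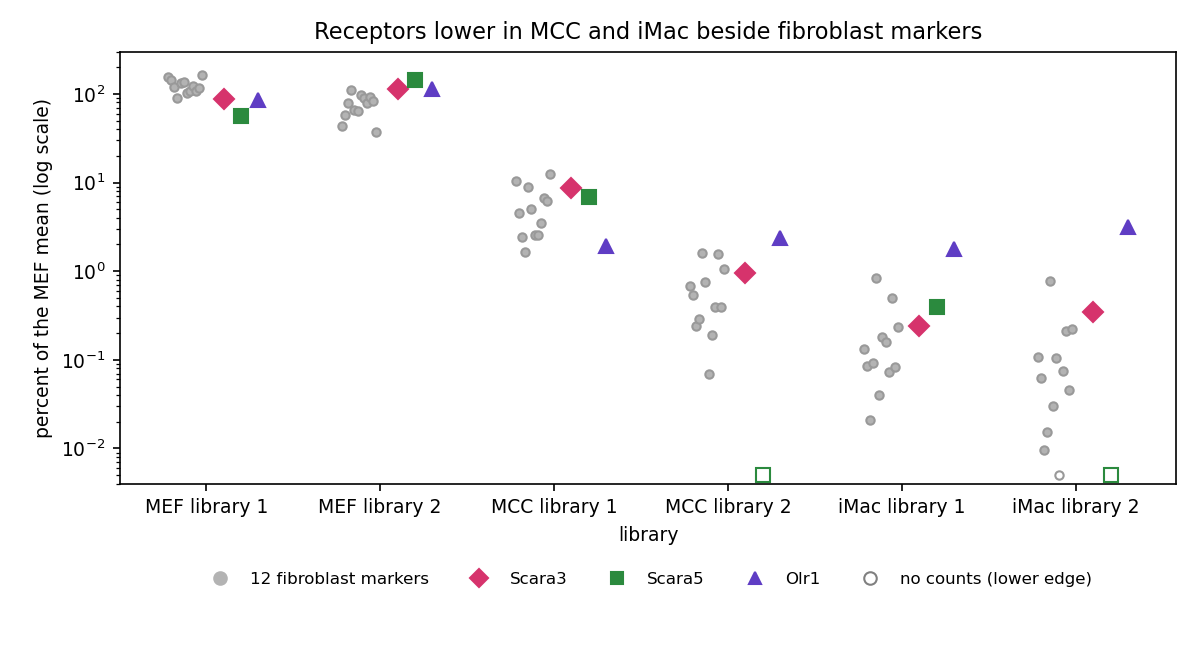
Level of Scara3, Scara5, Olr1 (coloured) and the 12 fibroblast markers (grey) in each of the 6 libraries, as a percentage of the mean in MEF, on a log axis, with open points at the lower edge where there were no counts. In MCC library 1 Scara3 (8.71%) and Scara5 (6.95%) lie within the range of the fibroblast markers, and Olr1 lies between 1.77 and 3.13% in all 4 MCC and iMac libraries.

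The comparison of iMac with MCC asks whether the receptors differed between the MCC and the cells labelled as macrophages. None of the 10 members was called by the edgeR quasi-likelihood test, in which 0.0215% of all genes tested were called, 0.0107% in each direction. At an unadjusted p under 0.05 there were 5 members, 3 higher and 2 lower, beside 18.2% of all genes. DESeq2 called 3 higher (Cd68, Scarb1 and Scarb2) and 3 lower (Msr1, Mrc1 and Scara3), beside 7.95% and 10.3% of all genes with an adjusted p there. With limma-voom Cd68 and Scarb2 were called higher and Msr1 lower, beside 0.543% and 0.242% of all genes. The edgeR test on these 4 libraries alone called Cd68, Scarb1 and Scarb2 higher and Msr1 and Mrc1 lower, beside 4.36% and 4.24%. The libraries of the groups did not overlap in 6 members, 3 in each direction, where 27.7% of all genes lay higher and 27.9% lower without overlap. The members' median log2 difference was 0.15, beside -0.02 over all genes.

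The sizes of these differences are given with their 95% confidence intervals. Lysosomal Cd68 was 1.76 times its MCC level in iMac (log2 difference 0.82, interval 0.48 to 1.15, adjusted p = 0.1106), and Scarb2 was 1.61 times (0.69, interval 0.47 to 0.90, adjusted p = 0.07912). For Scarb1 the ratio was 1.34 (0.42, interval 0.10 to 0.75, adjusted p = 0.2163). Msr1 lay the other way, with a log2 difference of -0.89 (interval -1.34 to -0.44, adjusted p = 0.1394), which is 1.86-fold lower in iMac. Mrc1 was 1.55-fold lower (-0.63, interval -1.32 to 0.06, adjusted p = 0.2989). Stab1 (0.22, interval -0.44 to 0.88), Colec12 (0.12, interval -0.28 to 0.52) and Olr1 (0.18, interval -1.03 to 1.40) had intervals on both sides of 0. Scara3 was at -4.02 (interval -7.04 to -0.998, adjusted p = 0.2098). This became -1.72 when MCC library 1 was left out and -5.00 when MCC library 2 was. The second fit leaves MCC library 1, which had the higher fibroblast marker sum, as the only MCC library. For Scara5, with 3 counts in iMac, the level was lower by a ratio of 17.9 (95% counting interval 5.83 to 89.1; adjusted p = 0.3823), and its libraries overlapped.

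Per kilobase of exon, the receptors changed places between the cell types. In MEF the order by mean CPM per kilobase was Colec12 (29.5), Scarb2 (22.9), Scara3 (17.1), Scarb1 (6.58), Scara5 (3.75), Cd68 (2.27), Olr1 (1.89), Mrc1 (0.127), Stab1 (0.0995) and Msr1 (0.0144). Scara5 and Cd68, Cd68 and Olr1, and Mrc1 and Stab1 were neighbours whose libraries overlapped. In MCC the order was Cd68 (601), Mrc1 (330.5), Stab1 (229), Msr1 (79.8), Colec12 (78.5), Scarb2 (31.2), Scarb1 (16.5), Scara3 (0.827), Scara5 (0.130) and Olr1 (0.0407). Msr1 and Colec12 overlapped there, as did Scara3 and Scara5, and Scara5 and Olr1. In iMac it was Cd68 (1058), Stab1 (267), Mrc1 (214), Colec12 (85.2), Scarb2 (50.2), Msr1 (43.0), Scarb1 (22.1), Scara3 (0.0501), Olr1 (0.0463) and Scara5 (0.00735), with overlap of Scara3 and Olr1 only. Colec12 was thus the most abundant class A receptor per kilobase in MEF and in iMac, and in MCC its libraries overlapped with those of Msr1. That overlap depends on the length used: with the longest transcript Msr1 stood at 139 and Colec12 at 85.4 in MCC, without overlap. With the longest transcript as the length, 6 of the 30 ranks changed: Scarb1 and Scara3 changed places in MEF, Scarb1 and Scarb2 in MCC, and Msr1 and Scarb2 in iMac.

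**Figure D4:**
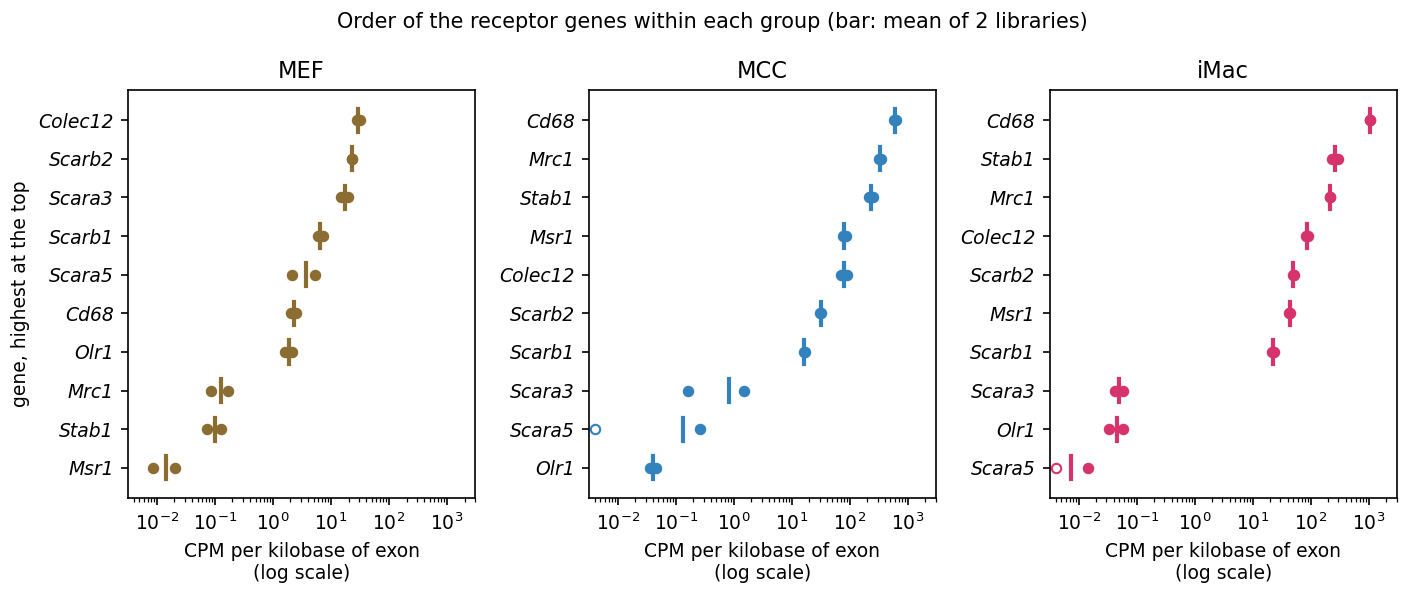
Mean CPM per kilobase of exon of the 10 members in MEF, MCC and iMac on a log axis, with each library as a point, open at the lower edge where it had no counts, and the mean as a bar. Colec12, Scarb2 and Scara3 lead in MEF, and Cd68, Mrc1 and Stab1 lead in MCC and iMac.

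Relatives, ligands and downstream genes were taken as lists: 78 genes, of which 75 were in the table and 65 were tested. In MCC against MEF 30 rose, 15 fell and 20 were not called, with a median log2 fold change of 0.68. Of all genes tested, 23.4% were called higher and 29.6% lower there. In iMac against MEF 33 rose, 16 fell and 16 were not called, with a median of 0.63, beside 25.1% and 32.4% of all genes. The same shares of all genes belong beside the counts of the single lists below. The number of calls depended on single libraries. In MCC fewer list genes were called lower without either MEF library or either iMac library. In iMac fewer were called in both directions without either iMac library, as was so over all genes tested. In iMac against MCC none of the 65 was called by edgeR, while DESeq2 called 16 higher and 11 lower (7.95% and 10.3% of all genes) and limma-voom 4 and 2 (0.543% and 0.242%).

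Close relatives did not always follow the member of their family. Marco, a class A receptor of macrophages, was not counted in MEF, lay at 7.54 and 10.2 CPM in MCC and at 3.46 and 2.89 CPM in iMac, and so was at least 223-fold and 80.3-fold higher. Cd36, the class B receptor for oxidised lipoprotein and fatty acids, was at 2.79 and 29.0 CPM in MEF, at 533 and 1026 CPM in MCC and at 812 and 921 CPM in iMac. Its log2 fold change was 5.61 ± 1.21 in MCC (adjusted p = 0.01572) and 5.77 ± 1.21 in iMac (0.01283), the second lost without either iMac library (up to 0.05409). The relatives of Mrc1 moved against it: Mrc2, Pla2r1 and Ly75 all fell in both comparisons, with median log2 fold changes of -4.44 and -7.21. Mrc2, a collagen receptor of mesenchymal cells, was at 478 and 235 CPM in MEF, at 16.7 and 1.52 CPM in MCC and at 0.448 and 0.543 CPM in iMac. Its call in MCC was lost without MEF library 1 (adjusted p = 0.05742) and in iMac without either iMac library (up to 0.05223), and without MCC library 1 its log2 fold change in MCC was -7.86 (0.001399). The calls of Ly75 were lost without MEF library 1 or 2 or either iMac library in MCC (up to 0.08925) and without iMac library 2 in iMac (0.05008). Without MCC library 1 the log2 fold change of Ly75 in MCC was -5.24, against -3.51 with it.

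Of the 5 stabilin and EGF-like receptors, Stab2 and Scarf1 rose and Scarf2, Megf10 and Megf11 fell in both comparisons. The calls of Megf10 were lost without either iMac library in both comparisons, and in MCC also without MEF library 1 or 2 (adjusted p up to 0.1022 in MCC and 0.06451 in iMac). Without MCC library 1 its log2 fold change in MCC was -8.62, against -5.04 with it. Stab2, the hyaluronan receptor and relative of Stab1, was at 0.217 and 0.0515 CPM in MEF, at 12.7 and 9.84 CPM in MCC and at 69.7 and 64.0 CPM in iMac (log2 fold changes 6.38 ± 0.49 and 8.94 ± 0.52). The MCC and iMac libraries of Stab2 did not overlap, with a log2 difference of 2.56 ± 0.36 that was not called (adjusted p = 0.09087). Among the 5 tested receptors with cysteine-rich domains, Cd163, Cd5l and Lgals3bp rose and Ssc5d fell in both. Cd163, the haemoglobin-haptoglobin receptor of macrophages, was at 0.0542 and 0.232 CPM in MEF, at 137 and 166 CPM in MCC and at 20.3 and 7.03 CPM in iMac. It was lower in both iMac libraries than in both MCC libraries, as Msr1 and Mrc1 were, with a log2 difference of -3.47 ± 0.60 that was not called (adjusted p = 0.1216).

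The LAMP proteins, the family that Cd68 belongs to, showed nothing of its size: none of 3 tested was called in MCC, and Lamp1 alone rose in iMac (log2 fold change 0.76 ± 0.17, adjusted p = 0.017), a call lost without either iMac library (up to 0.1028). Lamp2 was at 539 and 420 CPM in MEF, at 434 and 423 CPM in MCC and at 569 and 540 CPM in iMac. Of 8 other receptors classed here, Cxcl16 rose in both comparisons, 4 fell in MCC and 5 in iMac. Of these falls, 2 were called in MCC without either MEF or either iMac library, and in iMac 3 without MEF library 1 or iMac library 1 and 2 without iMac library 2.

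The gene cluster around Olr1 on chromosome 6 held genes that moved both ways. Clec7a (Dectin-1, the beta-glucan receptor), which the annotation used lists as a polymorphic pseudogene and whose end lies 12.5 kb from Olr1 on the same strand, was at 0.0271 and 0 CPM in MEF, at 29.8 and 48.7 CPM in MCC and at 91.9 and 120 CPM in iMac. With 1 count in MEF its ratio was 2963 in MCC (counting interval 531 to 117079, adjusted p = 0.0004595) and 8016 in iMac (1438 to 316657, adjusted p = 0.0002691). Clec12a, an inhibitory receptor of myeloid cells 120 kb away, rose as well, at 506-fold (173 to 2457) and 1079-fold (369 to 5238). Clec1a fell with Olr1, from 1.33 and 6.83 CPM in MEF to 0 and 0.0268 CPM in MCC and 0.388 and 0.332 CPM in iMac, and its call in iMac was lost without MEF library 2 or either iMac library (up to 0.1356). Of the 6 tested lectins of the cluster, 2 rose and 1 fell in MCC, and 3 rose and 1 fell in iMac.

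**Figure D5:**
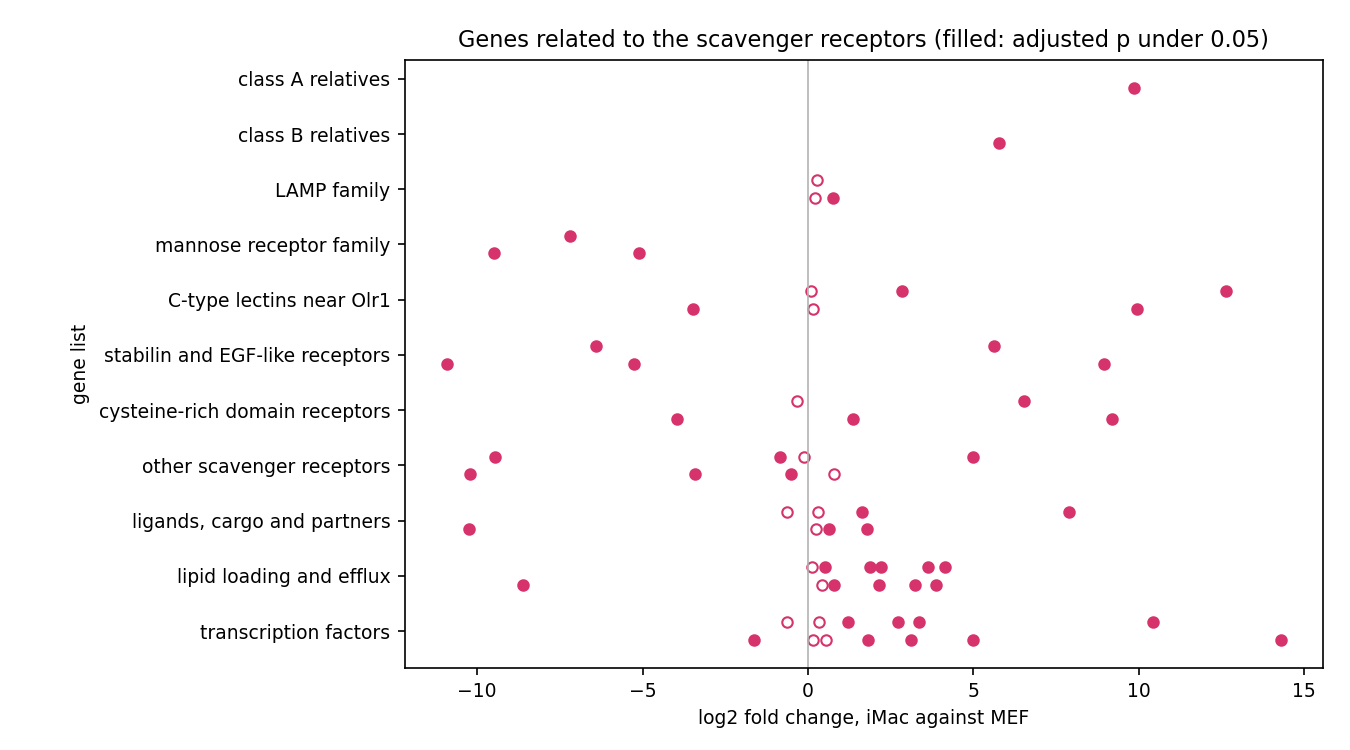
Fitted log2 fold change in iMac against MEF (x axis) of the 65 tested genes, 1 row of points per list, shifted up and down for visibility; filled points had an adjusted p under 0.05. The 3 mannose receptor relatives all lie below 0, 8 of the 13 factors are filled above 0, and points of genes with 3 or fewer counts in a group depend on the prior count.

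Ligands, cargo and partners followed no single direction: 4 of 8 tested rose and 1 fell in each comparison. Apoe, the apolipoprotein that several of these receptors bind on lipoprotein particles, rose by 7.16 ± 0.32 on the log2 scale in MCC and 7.89 ± 0.33 in iMac. Ftl1, the ferritin light chain that Scara5 takes up, rose by 1.497 ± 0.135 and 1.62 ± 0.14. Sparc, a ligand of Stab1, was at 4493 and 2283 CPM in MEF, at 185 and 15.2 CPM in MCC and at 2.30 and 3.29 CPM in iMac. Its log2 fold changes were -5.08 ± 1.27 and -10.24 ± 1.60, called in both, but not without either MEF or either iMac library in MCC (adjusted p up to 0.07472) or without iMac library 1 in iMac (0.05185). Leaving out MCC library 1 took the value of Sparc in MCC to -7.79.

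Of 12 genes of lipid storage and efflux, 6 rose in MCC and 9 in iMac (5 without iMac library 1, where Nr1h3, Pparg, Npc1 and Npc2 lost their calls), and Ppara fell in both, from 0.840 and 1.85 CPM in MEF to no counts in iMac. Abca1, which exports cholesterol, was at 134 and 163 CPM in MEF, at 766 and 646 CPM in MCC and at 1922 and 1769 CPM in iMac, with log2 fold changes of 2.25 ± 0.16 and 3.64 ± 0.17. Its partner Abcg1 rose by 2.42 ± 0.27 and 4.15 ± 0.29, Plin2, which coats lipid droplets, by 2.65 ± 0.11 and 3.86 ± 0.12, and Lipa, the lysosomal acid lipase, by 2.66 ± 0.20 and 3.24 ± 0.21. Ppara was not called without MEF library 2 in MCC (adjusted p = 0.08292), nor without that library or either iMac library in iMac (up to 0.05569).

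Among 13 factors known to bind or control macrophage receptor genes, 10 rose in MCC and 8 in iMac, and Jun fell in both. The call of Cebpb in MCC was lost without MEF library 1. Spi1, which encodes PU.1, had 1 count in MEF and was at 305 and 371 CPM in MCC and at 368 and 307 CPM in iMac. Mitf, a factor of lysosomal genes, rose by 2.31 ± 0.31 and 3.11 ± 0.32 on the log2 scale. Jun, a subunit of AP-1, was at 138 and 310 CPM in MEF, at 97.6 and 44.8 CPM in MCC and at 80.6 and 63.3 CPM in iMac, and its calls (adjusted p = 0.04868 and 0.0467) were each lost when MEF library 2 or either iMac library was left out, and in MCC also without MCC library 2 (up to 0.2544 and 0.2151).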

How the data were processed

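RNA was extracted with Trizol and made into libraries with a kit for mRNA, per the labels' protocols. The authors deposited raw counts of reads per gene, made with STAR, featureCounts and the mm10 genome, per the submitters' processing notes, which give no versions. The sources used here give no gene annotation, strand setting or rule for multi-mapping reads. From the counts as deposited, genes were filtered with filterByExpr in edgeR 4.0.16 (R 4.3.3), which removed 11832 and left 18613. All 6 libraries were fitted together, with TMM scaling and group as the only term (3 residual degrees of freedom), by the two-sided quasi-likelihood test, with Benjamini-Hochberg adjustment over these genes and 0.05 as threshold. Standard errors were derived from F statistics (prior count 0.125). A floor of 3 counts per group was used: against no counts a fold is a lower bound to that floor, and against 1 to 3 counts it is a ratio carrying a 95% counting interval. Symbols were matched to GENCODE mouse release M21 on GRCm38 (29529 of 30445), whose exon union gave lengths. Motifs were searched on both strands. Alternatives were DESeq2 1.42.0, limma-voom (limma 3.58.1), other scaling and filters (none, or 5 CPM in 2 libraries), fits limited to the groups compared, a replicate block, the longest transcript as length and leaving out each library, where the library left in its group is assumed to vary like the others. The script was tested on simulated data. Figures and summaries used Python 3.11.15. Named are all 10 members, genes of the lists, and, for Msr1 and Scara5, the 3 genes nearest in pattern. The members and lists were chosen with earlier results of these data known. Named list genes were picked with their values in view, and some list genes are counted but not reported by name here.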

Additional observations from a re-analysis of the deposited data

How the results depend on the processing

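Under 8 other settings and with each of the 6 libraries left out, 7 members were called higher in MCC and in iMac against MEF every time. Members called lower numbered 1 to 3 in MCC when a library was left out, 1 without MEF library 1 or 2, and 1 to 3 in iMac, 1 without iMac library 1. For iMac against MCC, members called higher and lower were 3 and 3 with DESeq2, 2 and 1 with limma-voom, and 3 and 2 with only the groups compared, against 0 and 0 in the reported fit, and with a library left out 0 were higher and 0 to 1 lower (Scara3, without MCC library 2). The log2 difference changed sign there for Colec12 (-0.022 with library totals without scaling, -0.076 without MCC library 1), Olr1 (-0.27 without iMac library 2), Scara5 (3.79 without MCC library 1) and Stab1 (-0.014 without MCC library 2), and the cause was not tested. With a library left out they ranged from -0.076 to 0.17, from -0.27 to 0.53, from -7.89 to 3.79 and from -0.014 to 0.38. For Scara5, 3.79 and -7.89 come from groups with no counts and depend on the prior count, and 3.79 is no measured difference, since both groups were then at or under the 3-count floor. Lengths from the longest transcript changed 6 ranks. Of the single member values under the alternatives, 387 kept direction and side of the threshold, 19 became calls, 7 lost theirs and 5 changed sign. Scara5 in MCC against MEF became a call with limma-voom and with no filter, and its adjusted p went up to 0.1423 over the 8 other settings.

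Over all genes tested, the 5506 calls lower in MCC became 3656 with the stricter filter and 3514 without MEF library 2, and the 6039 lower in iMac became 3972 with the stricter filter. For iMac against MEF, leaving out an iMac library gave 2492 and 2519 higher and 2681 and 2678 lower. For iMac against MCC, the 2 higher and 2 lower became 1193 and 1541 with DESeq2, 101 and 45 with limma-voom, 40 and 49 with no filter, 691 and 673 with only the groups compared and 66 and 1136 without MCC library 2. Replicate numbers are shared by the groups but only name the libraries: deviations of same-numbered libraries correlated at 0.19 (MEF and MCC), 0.01 (MEF and iMac) and 0.03 (MCC and iMac). With the replicate block the members called stayed at 7 higher and 2 lower in MCC and 7 and 3 in iMac, Scara3 in MCC against MEF was at -4.77 (adjusted p = 0.02652), and iMac against MCC had 0 calls of all genes tested. With 4 to 7 counts per iMac library, depth limits what can be said of Olr1 there, and of Scara5 with 0 and 3.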

Other observations

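Scara5 and Scara3 are neighbours on chromosome 14, on opposite strands and 155 kb apart, with 3 protein-coding genes between them, Pbk, Esco2 and Ccdc25. None of these 3 was called in MCC or iMac against MEF, where 53.0% and 57.6% of all genes tested were called. Pbk, a kinase of dividing cells, was at 14.7 and 33.6 CPM in MEF, at 24.3 and 15.8 CPM in MCC and at 10.5 and 11.2 CPM in iMac (adjusted p = 0.6251 and 0.07296, edgeR quasi-likelihood test). Clu, the secreted chaperone clusterin on the far side of Scara3, was at 57.0 and 74.6 CPM in MEF, at 28.5 and 5.24 CPM in MCC and at 2.54 and 1.84 CPM in iMac. Clu was called in iMac (log2 fold change -4.91 ± 0.89, adjusted p = 0.008367) and not in MCC (-1.96 ± 0.77, adjusted p = 0.08322), where leaving out MCC library 1 gave -3.64 and a call (adjusted p = 0.001602).

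The genes whose pattern over the 6 libraries lay nearest to that of Msr1, by Euclidean distance of centred log2(CPM + 0.5) among 8928 genes with at least 20 CPM in their highest group, were Csf2rb (distance 0.899), Spi1 (0.905) and Ms4a6d (0.939). Csf2rb, the shared receptor chain of several myeloid cytokines, was at 0.0542 and 0.0515 CPM in MEF, at 458 and 521 CPM in MCC and at 474 and 411 CPM in iMac. Nearest to Scara5 were Celsr1 (0.513), Aox1 (0.536) and Tead4 (0.611). Tead4, a partner of the Hippo pathway coactivators, was at 16.6 and 24.3 CPM in MEF and at 1.51 and 0.0535 CPM in MCC. It had no counts in iMac. All 3 were higher in MCC library 1 than in MCC library 2, as Scara5 was. They were chosen for likeness to Scara5 over these same libraries, so this was largely fixed by the choice.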
